A study of Mus musculus with 8 samples.

Results

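The genes described here were 34 mouse genes that carry glucose into the cell, break it down to pyruvate, convert pyruvate to lactate, move lactate across the membrane or keep pyruvate from being oxidized in the mitochondrion. They were chosen by name as the transporters, the enzymes of each step of glycolysis with their isoform genes, the lactate dehydrogenases, the pyruvate dehydrogenase kinases and the lactate transporters, and all 34 were found among the 54532 Ensembl identifiers of the count table. The rule that picks them uses gene names and no measured value, although it was written with earlier results of these data known. Magnetic beads (MACS) were used to sort B cells out of bone marrow, and their RNA was sequenced in 3 libraries from sham-operated mice (Sham) and 3 from ovariectomized mice (OVX). Ovariectomy removes the source of most circulating estrogen and is used as a model of postmenopausal bone loss. Both groups came from bone marrow and were labelled with the same cell type, and the labels give no agent besides the surgery. The study's methods describe the surgery in young female mice for other experiments. They do not tie an age, a strain or a number of animals per library to these libraries. The figure legends for this RNA sequencing give n = 3 for Sham or OVX mice, which matches the 3 libraries per group. Read that way, the libraries are separate mice, although the legends do not say whether any library pooled animals. The p-values measure the spread between libraries.

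Glycolysis splits glucose into pyruvate and yields ATP without oxygen. The cell keeps it running by turning pyruvate into lactate through lactate dehydrogenase, which restores the NAD+ that glyceraldehyde-3-phosphate dehydrogenase needs, and by exporting lactate with a proton through the monocarboxylate transporters. Most steps have several isoform genes with different tissue ranges and different control, so the isoform in use can affect how the pathway responds. Many of these genes are known targets of HIF-1α, the oxygen-regulated transcription factor at the centre of the study, and developing B cells of the bone marrow raise glycolysis when they divide.

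The core letters of the hypoxia response element, which HIF-1α is known to bind, are ACGTG and GCGTG. Both strands of the 250 bases before each annotated start were searched for them in the RefSeq promoters of GRCm38.p6. An ACGTG that lies in the palindrome CACGTG matches on both strands and was counted once per strand. Of the 34 genes, 33 had a promoter in the table, with 53 starts among them, and Slc2a3 had none. ACGTG was found before 19 of the 53 starts (35.85%), against 16.57% of all 32851 promoters of that length, and either core was found before 37 (69.81%), against 38.6%. Some starts of a gene lie close together and share a match, as in Aldoa and Eno1. By gene, 15 of the 33 had ACGTG and 27 had either core before a start. The share by gene was not computed over all genes, and a gene with several starts has more chances of a match. The counts by gene therefore do not compare with the shares of promoters. The promoters were not matched for base composition. A match is a description of the letters and not a site of binding. The following promoters are shown as examples. Ldha and Eno3 were picked by their values, as the only 2 of 32 tested members whose OVX and Sham libraries did not overlap. Both had OVX below Sham, where 4.12% of all genes lay below and 4.33% above. Slc16a1 and Slc16a3 are the pair of lactate transporters. Each is printed 5′ to 3′ on the plus strand, which is the strand of the gene, and ends at the base before the start. Capitals mark the matches, written CACGT or CACGC where the match is on the minus strand.
Ldha, chr7:46845554-46845803: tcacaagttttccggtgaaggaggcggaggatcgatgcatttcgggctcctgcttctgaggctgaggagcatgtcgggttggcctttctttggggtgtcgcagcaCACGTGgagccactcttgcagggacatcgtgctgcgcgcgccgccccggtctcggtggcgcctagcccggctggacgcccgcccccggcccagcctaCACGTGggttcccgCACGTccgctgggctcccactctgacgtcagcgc
Eno3, chr11:70656926-70657175: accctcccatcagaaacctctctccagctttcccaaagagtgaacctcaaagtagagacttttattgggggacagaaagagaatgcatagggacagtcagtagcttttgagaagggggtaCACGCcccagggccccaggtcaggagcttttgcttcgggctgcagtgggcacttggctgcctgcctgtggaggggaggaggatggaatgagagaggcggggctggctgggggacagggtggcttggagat
Slc16a1, chr3:104638414-104638663: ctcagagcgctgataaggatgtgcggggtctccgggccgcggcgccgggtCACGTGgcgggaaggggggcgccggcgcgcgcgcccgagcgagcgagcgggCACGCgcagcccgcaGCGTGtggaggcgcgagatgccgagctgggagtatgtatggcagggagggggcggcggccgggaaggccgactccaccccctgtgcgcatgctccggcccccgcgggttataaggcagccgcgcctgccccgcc
Slc16a3, chr11:120948817-120949066: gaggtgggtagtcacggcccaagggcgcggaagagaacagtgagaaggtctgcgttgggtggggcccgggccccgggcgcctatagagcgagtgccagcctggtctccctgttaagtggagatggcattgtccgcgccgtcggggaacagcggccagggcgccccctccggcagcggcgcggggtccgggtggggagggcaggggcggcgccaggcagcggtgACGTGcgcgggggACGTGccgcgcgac
The Ldha sequence held 5 ACGTG matches, which began 145, 144, 48, 47 and 34 bases before the start, the first 4 of them in a pair of CACGTG palindromes. It is the first of 2 Ldha starts in the promoter set. The annotated spans of Ldha, Eno3 and Slc16a3 begin before the starts shown, at 46842274, 70653125 and 120948484. The Slc16a1 sequence held ACGTG matches at 200 and 199 bases in a palindrome and GCGTG matches at 149 and 134 bases. The Slc16a3 sequence held ACGTG matches at 27 and 14 bases, and the Eno3 sequence held a single GCGTG match at 130 bases.

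The libraries held 23838775 to 33136701 counts each. Sham 1 was nearer in its counts to each OVX library (chi-square per degree of freedom 8.71 to 11.9) than to Sham 2 (52.5) or Sham 3 (31.4). The 13 B lineage markers were all detected, with a summed level of 11000 to 13400 CPM per library, where CPM are read counts relative to the library's total after scaling with edgeR's TMM factors. Markers of neutrophils, a cell type that the isolation was meant to leave behind, were present in all of them and uneven. The 18 neutrophil genes summed to 2737, 3685 and 10450 CPM in Sham 1, 2 and 3 and to 4413, 1212 and 1283 CPM in OVX 1, 2 and 3. All 18 were highest in Sham 3, none was at 0 in every library, and each ranged 7.26- to 17.3-fold between libraries. Early B cell markers summed to 1425 CPM in Sham 2 against 1724 to 2854 CPM elsewhere, while mature B cell markers summed to 2855 CPM in Sham 2 against 1184 to 1584 CPM elsewhere. Monocyte and macrophage markers summed to 724 to 2488 CPM, erythroid markers to 536 to 815 CPM, plasma cell markers to 255 to 839.5 CPM, megakaryocyte markers to 81.7 to 231 CPM, and T and NK cell markers to 15.6 to 49.4 CPM. Cell cycle genes, which dividing B cell precursors express, summed to 3382 CPM in Sham 2 and 4192 to 4969 CPM in the others. In bulk samples such as these, fewer cells of a type and less RNA per cell cannot be told apart.

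To ask whether the pathway as a whole moved after ovariectomy, OVX was compared with Sham over all genes and the members were read from that fit. No member was called, and neither was any other gene. In counts simulated with the spread of these libraries, edgeR called 5 of 200 genes changed 1.5-fold, so changes of that size could be missed. The filter on low counts passed 32 of the 34 genes and removed Eno2 and Pdk4. At an adjusted p under 0.05 in edgeR's quasi-likelihood test 0 of the 32 passed, as did 0 of 15305 genes (0.0%), and the lowest adjusted p of any gene was 0.811. At an unadjusted p under 0.05, 1 member passed, Pklr, and it was lower in OVX, where 2.28% of all genes passed in that direction and 1.47% in the other. DESeq2, which fitted all 34 members, placed 4 of them (Slc2a3, Hk2, Pfkfb4 and Pklr) and 755 of 27416 genes under that unadjusted threshold. With limma-voom, 2 of 32 members and 594 of 15305 genes lay under it. Neither method called a gene after adjustment. The unadjusted count turned on single libraries. It was 12 members and 2698 genes without Sham 1, 8 members and 988 genes without OVX 1, and 0 members and 286 genes without Sham 3, against 1 member and 574 genes with all 6 libraries.

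In direction the group was uneven. Of the 32 members, 25 were lower and 7 higher in OVX, while 51.84% of all genes were lower. The median log2 fold change was -0.15 for the members and -0.01 for all genes. The 7 on the higher side were Slc2a1, Pfkfb3, Aldoc, Pgam2, Pdk2, Pdk3 and Slc16a1. With libraries scaled on their B lineage markers in place of all genes, which moved the median of all genes to -0.12, the members' median was -0.26 and 2 were higher. With the neutrophil marker level as a covariate the median was -0.04 and 12 were higher. Without Sham 3 it was -0.11, and without Sham 1 it was -0.20.

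**Figure D1:**
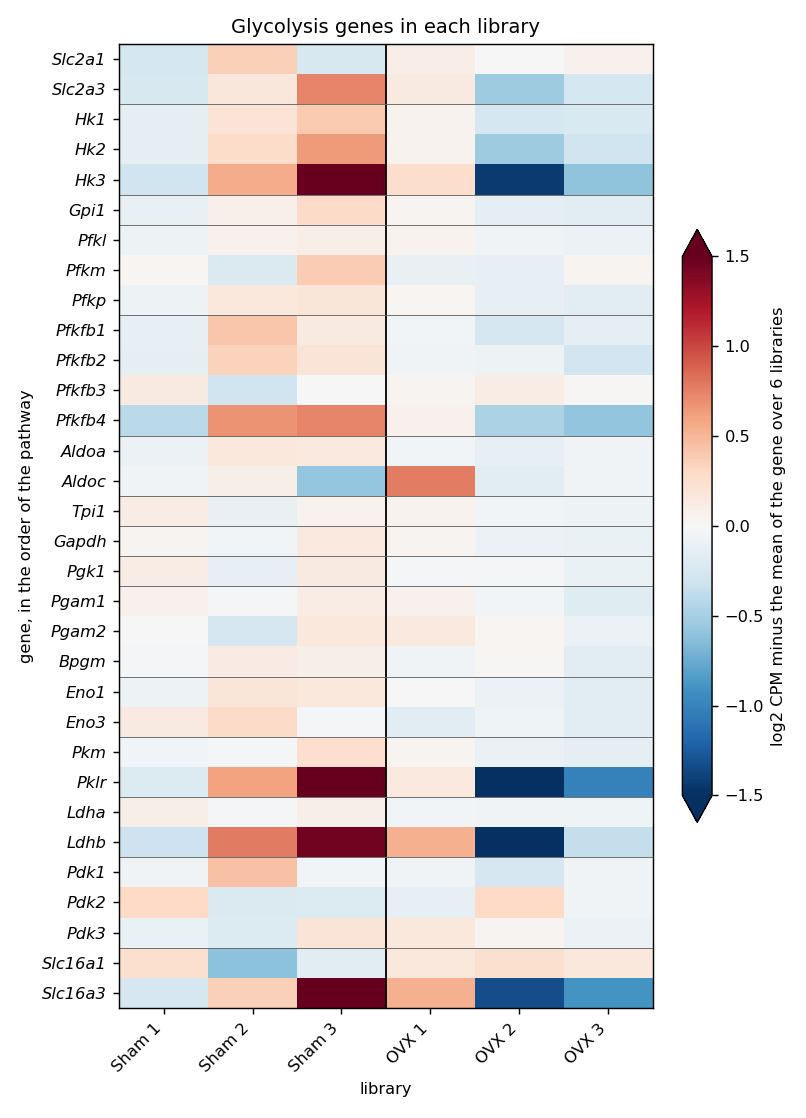
Level of each of the 32 tested genes in each of the 6 libraries, as log2 CPM minus the gene's mean over the 6 libraries, in the order of the pathway, with thin lines between families. Sham 3 holds the strongest reds, in Hk3, Pklr, Ldhb and Slc16a3, and OVX 2 holds the strongest blues in the same 4 genes.

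The members were also spread between libraries of the same group. The median deviation of the 32 genes from their own means was -0.08, 0.14 and 0.15 on the log2 scale in Sham 1, 2 and 3, and 0.04, -0.10 and -0.13 in OVX 1, 2 and 3. Sham 1 thus lay below OVX 1, so the groups overlapped. Of the 32 members, 18 were highest in Sham 3, the library with the most neutrophil marker RNA, compared with 18.3% of all genes tested. Of these, 7 were also lowest in OVX 2, the library with the least, namely Slc2a3, Hk1, Hk2, Hk3, Pklr, Ldhb and Slc16a3, compared with 5.61% of all genes. Another 8 were highest in Sham 2, the library with the most mature B cell marker RNA, namely Slc2a1, Pfkfb1, Pfkfb2, Aldoa, Bpgm, Eno1, Eno3 and Pdk1, compared with 25.69% of all genes. The same libraries also stood out in other marker lists. OVX 2 had the lowest monocyte and macrophage, erythroid, and T and NK cell sums. Sham 3 had the highest T and NK cell sum. Sham 2 had the highest plasma cell, monocyte and macrophage, and erythroid sums. These descriptions were chosen after the values were seen.

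**Figure D2:**
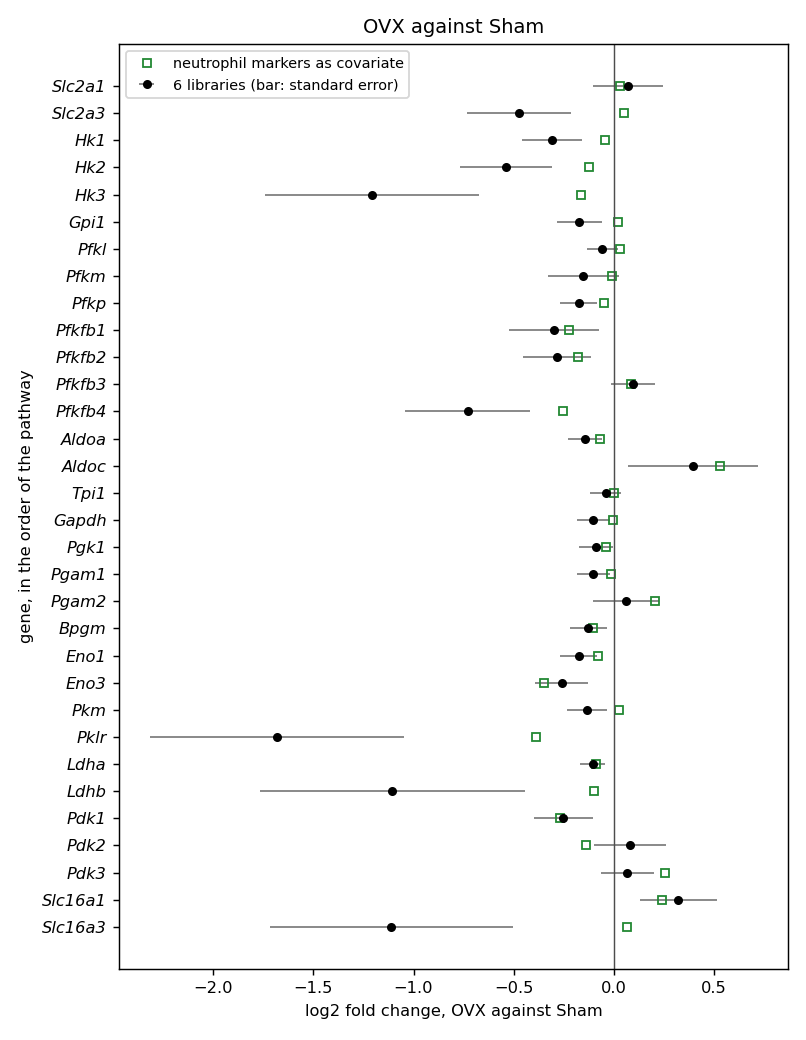
Log2 fold change of OVX against Sham for the 32 tested genes in pathway order. Black points with standard errors are from the 6 libraries, and open squares are from the same model with the log2 summed neutrophil marker level as a covariate. Hk3, Pklr, Ldhb and Slc16a3 lie farthest to the left, and their squares lie between -0.39 and 0.07.

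Glucose enters B cells through facilitative transporters. Slc2a1 encodes GLUT1, the widely expressed transporter that activated lymphocytes raise, and Slc2a3 encodes GLUT3, which has a higher affinity for glucose. Slc2a1 stood at 24.7, 38.2 and 25.2 CPM in Sham 1, 2 and 3 and at 31.9, 29.8 and 31.2 CPM in OVX 1, 2 and 3. The OVX libraries lay close together and inside the Sham range, and the log2 fold change was 0.07 ± 0.17 (standard error). It ranged from -0.04 without Sham 1 to 0.31 without Sham 2. Slc2a3 stood at 43.4, 57.6 and 85.0 CPM in Sham and at 56.1, 35.5 and 42.5 CPM in OVX. Sham 3 was highest, OVX 2 lowest, and the groups overlapped, with a log2 fold change of -0.47 ± 0.26 that was -0.19 without Sham 3 and 0.05 with the neutrophil covariate. Of the reads of the pair, Slc2a3 took 66.99% ± 8.996 in Sham and 58.6% ± 4.76 in OVX (SD, n = 3 per group). That difference of -8.36 percentage points was -3.27 without Sham 3. All shares of reads given here are uncorrected for transcript length, so they compare libraries and do not rank isoforms by molecule.

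The hexokinases phosphorylate glucose and trap it in the cell. Hk1 is the general form, Hk2 is the form induced by growth factors and low oxygen, and Hk3 is expressed in myeloid cells. Hk1 stood at 52.9, 67.2 and 76.6 CPM in Sham and at 60.5, 48.6 and 50.01 CPM in OVX. The groups overlapped because Sham 1 lay between OVX 3 and OVX 1 (log2 fold change -0.31 ± 0.15, or -0.19 without Sham 3 and -0.04 with the neutrophil covariate). Hk2 stood at 15.8, 21.03 and 26.96 CPM in Sham and at 18, 11.9 and 14.1 CPM in OVX. It had the same order of libraries as Hk1, and on the log2 scale OVX minus Sham was -0.54 ± 0.23, which was -0.34 when Sham 3 was left out and -0.12 with the neutrophil covariate. Hk3 stood at 24.4, 44.3 and 85.8 CPM in Sham and at 36.0, 11.2 and 19.9 CPM in OVX. The highest library was 7.69 times the lowest, Sham 1 lay below OVX 1, and the log2 fold change was -1.21 ± 0.53. It was -0.63 without Sham 3, -1.73 without OVX 1 and -0.16 with the neutrophil covariate.

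The hexokinase shares varied within each group. Hk1 took 56.8%, 50.7% and 40.5% in Sham and 52.9%, 67.8% and 59.6% in OVX. Hk3 took 26.3%, 33.4% and 45.3% in Sham and 31.4%, 15.6% and 23.7% in OVX. Both shares overlapped between groups (two-sided exact permutation test, p = 0.2 for each, where 3 libraries against 3 allow no less than 0.1). The difference in the Hk1 share, 10.8 percentage points, was 6.34 without Sham 3 and 6.91 without OVX 2. Hk2 held 14.2% to 17% of the reads in every library.

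**Figure D3:**
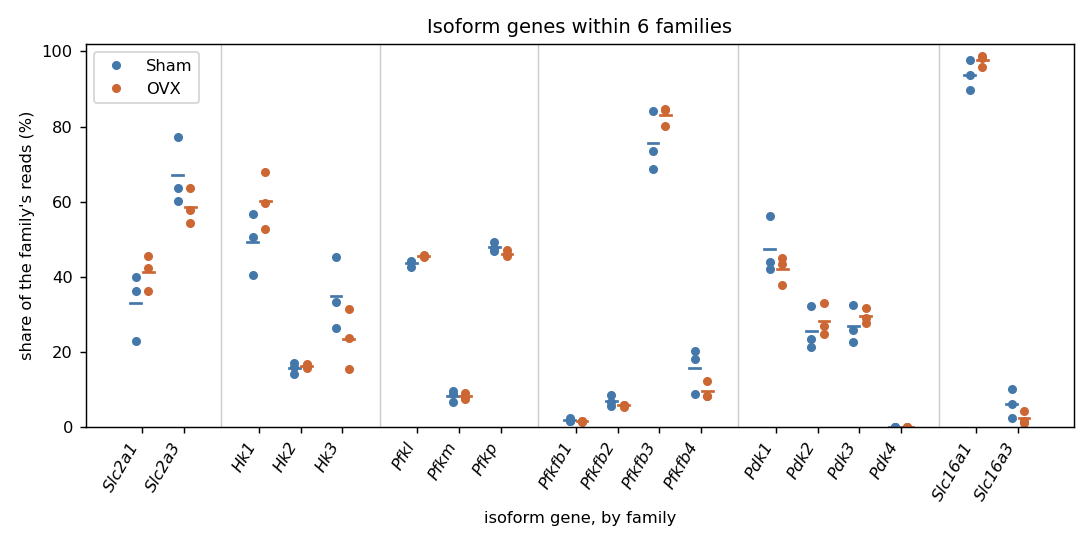
Share of each family's reads that belonged to each isoform gene, in percent, in 6 families, with 1 point per library and a dash at the group mean (blue Sham, orange OVX). Pfkfb3 and Slc16a1 hold most of their family's reads in every library, while the hexokinase and glucose transporter shares spread widely within each group.

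Gpi1, which turns glucose 6-phosphate into fructose 6-phosphate, stood at 217, 246 and 286 CPM in Sham and at 241, 213 and 209.7 CPM in OVX. Sham 1 lay among the OVX libraries (log2 fold change -0.17 ± 0.11, or -0.07 without Sham 3 and 0.02 with the neutrophil covariate). Phosphofructokinase makes the committed step of the pathway, with liver (Pfkl), muscle (Pfkm) and platelet (Pfkp) forms that assemble into tetramers. Pfkp stood at 61.5, 72.0 and 73.3 CPM in Sham and at 66.0, 59.6 and 57.7 CPM in OVX, with a log2 fold change of -0.17 ± 0.09 that was -0.05 with the neutrophil covariate. Pfkl ranged only from 57.6 to 65.6 CPM over the 6 libraries and Pfkm from 9.79 to 14.8 CPM, with log2 fold changes of -0.06 ± 0.08 and -0.15 ± 0.18. Pfkl turned to 0.03 with the neutrophil covariate, and Pfkm to 0.02 without Sham 3. Pfkl and Pfkp thus took near-equal parts of the reads, at 43.6% ± 0.844 and 48.0% ± 1.23 in Sham and 45.6% ± 0.266 and 46.2% ± 0.825 in OVX (SD, n = 3 per group). The OVX values of the Pfkl share, 45.4%, 45.9% and 45.4%, all lay above the Sham values of 44.3%, 44.0% and 42.7%. That separation has p = 0.1 in the two-sided exact permutation test, the smallest it can give here. Among all the isoform shares compared, only those of Pfkl and Pgam2 did not overlap between groups. Neither p was adjusted for the number of shares compared.

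The PFKFB enzymes make and remove fructose 2,6-bisphosphate, the strongest activator of phosphofructokinase. Pfkfb3 has the highest ratio of kinase to phosphatase activity and led the family in every library. It stood at 144, 107 and 132 CPM in Sham and at 134.5, 142 and 132 CPM in OVX. Only Sham 2 stood apart, on the low side, and the log2 fold change of 0.10 ± 0.11 was -0.02 without it and -0.01 with scaling on B lineage markers. Pfkfb4, another form known to respond to low oxygen, stood at 14.8, 31.3 and 32.4 CPM in Sham and at 20.4, 14.1 and 12.99 CPM in OVX. Sham 2 and Sham 3 were high and Sham 1 lay with the OVX libraries, so that the log2 fold change of -0.73 ± 0.31 was -1.02 without Sham 1, -0.56 without Sham 3 and -0.25 with the neutrophil covariate. Pfkfb2, known from heart, and Pfkfb1, known from liver and muscle, ranged from 8.54 to 13.2 and from 2.4 to 3.804 CPM, with log2 fold changes of -0.28 ± 0.17 and -0.30 ± 0.23. Pfkfb3 held 75.6% ± 7.89 of the family's reads in Sham and 83.1% ± 2.46 in OVX (SD, n = 3 per group), with p = 0.2 in a two-sided exact permutation test. The difference in that share, 7.5 percentage points, was 11.8 without Sham 1 and 4.14 without Sham 2.

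Aldolase, triose phosphate isomerase and the dehydrogenase Gapdh follow. Aldoa, which splits fructose 1,6-bisphosphate, stood at 222, 263 and 261 CPM in Sham and at 230.5, 217 and 229 CPM in OVX (log2 fold change -0.14 ± 0.08). Its isoform gene Aldoc, known mainly from brain, took few reads, with 2.66, 2.92 and 1.85 CPM in Sham and 4.68, 2.47 and 2.66 CPM in OVX. Aldoc had the highest log2 fold change of the members, 0.40 ± 0.33, which rested on OVX 1 and was 0.05 without it. Triose phosphate isomerase (Tpi1) stood at 141, 121 and 135 CPM in Sham and at 135.5, 127 and 124 CPM in OVX (log2 fold change -0.04 ± 0.08). Gapdh, which makes the NADH of the pathway, took more reads than any other member, with 756, 711 and 814 CPM in Sham and 752.5, 687 and 686 CPM in OVX (log2 fold change -0.10 ± 0.08). Between the lowest and the highest library Tpi1, Gapdh and Aldoa spread 1.16-, 1.19- and 1.21-fold, and their groups overlapped. With the neutrophil covariate the log2 fold changes of Aldoa and Gapdh were -0.07 and -0.0054, and that of Tpi1 was 0.0016.

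The ATP-yielding Pgk1 stood at 186, 157 and 189 CPM in Sham and at 170.5, 170.5 and 160.0 CPM in OVX (log2 fold change -0.09 ± 0.09, or -0.04 with the neutrophil covariate). Phosphoglycerate mutase reads came mainly from Pgam1, at 62.1, 58.9 and 64.3 CPM in Sham and 62.2, 57.7 and 52.6 CPM in OVX. Sham 1 and Sham 2 lay among the OVX libraries, and the log2 fold change was -0.10 ± 0.08, or -0.02 with the neutrophil covariate. Pgam2, the muscle form, held 9.08%, 7.75% and 9.57% of the reads of Pgam1, Pgam2 and Bpgm in Sham and 10.03%, 9.62% and 9.79% in OVX. OVX lay above Sham in that share (unadjusted p = 0.1, two-sided exact permutation test). The Pgam2 level overlapped between groups, however, and its log2 fold change of 0.06 ± 0.16 was -0.05 without Sham 2 and 0.21 with the neutrophil covariate. Bpgm, whose product 2,3-bisphosphoglycerate lowers the oxygen affinity of hemoglobin, held 26.2% to 30.3% of those reads and had a log2 fold change of -0.13 ± 0.09.

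Enolase makes phosphoenolpyruvate. Eno1, the general form, stood at 299.8, 359.6 and 352 CPM in Sham and at 316.5, 298.5 and 282 CPM in OVX, and held 95.6% to 96.6% of enolase reads. Sham 1 lay inside the OVX range, and the log2 fold change of -0.17 ± 0.09 was -0.08 with the neutrophil covariate. Eno3, the muscle form, stood at 13.7, 15.2 and 12.2 CPM in Sham and at 11.2, 11.96 and 11.1 CPM in OVX. Each of the 3 OVX values was under each of the 3 Sham values (p = 0.1, two-sided exact permutation test), with 11.96 CPM in OVX 2 against 12.2 CPM in Sham 3. The log2 fold change was -0.26 ± 0.13 and was -0.35 with the neutrophil covariate. Of the 32 members 2 had OVX below Sham in this way, Eno3 and Ldha, and 0 had OVX above Sham. Over all genes 4.12% had OVX below Sham and 4.33% above. Eno2, the neuronal form, had 4, 1 and 7 reads in Sham and 16, 7 and 3 in OVX, too few to be tested.

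Pyruvate kinase closes the pathway. Pkm encodes PKM1 and PKM2, which gene-level counts cannot separate, and Pklr encodes the liver and red cell forms. Pkm stood at 418, 422.5 and 509.8 CPM in Sham and at 441, 399 and 391 CPM in OVX, and made up at least 98.2% of pyruvate kinase reads in every library. Its log2 fold change of -0.13 ± 0.10 was -0.04 without Sham 3 and 0.03 with the neutrophil covariate. Pklr (chr3:89136122-89146815) stood at 2.07, 3.63 and 9.21 CPM in Sham and at 2.65, 0.847 and 1.18 CPM in OVX. It was highest in Sham 3 and lowest in OVX 2, 10.9-fold apart, and Sham 1 lay below OVX 1. The log2 fold change was -1.68 ± 0.64 (unadjusted p = 0.0322, adjusted p = 0.811, edgeR's quasi-likelihood test), the lowest of the members. It was -0.89 without Sham 3, -2.28 without OVX 1 and -0.39 with the neutrophil covariate.

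Pyruvate then meets a fork. Lactate dehydrogenase reduces it to lactate, with the A subunit (Ldha) known to prevail in glycolytic cells and the B subunit (Ldhb) in oxidative ones. Ldha (chr7:46842274-46855627) stood at 309, 288 and 308 CPM in Sham and at 283, 279.7 and 279 CPM in OVX. Every OVX library lay below every Sham library, and the nearest pair was Sham 2 and OVX 1. The log2 fold change was small, -0.10 ± 0.06 (unadjusted p = 0.137, adjusted p = 0.811, edgeR's quasi-likelihood test), and stayed between -0.14 and -0.09 when any library was left out. With the neutrophil covariate it was -0.09. The 6 libraries spread 1.11-fold, the narrowest range of the tested members, and rows named as copies of Ldha held 0.0106% of its reads. Ldhb had 23, 59 and 82 reads in Sham and 43, 8 and 31 in OVX, so that Ldha made up 98.9% to 99.9% of lactate dehydrogenase reads. The log2 fold change of Ldhb was -1.11 ± 0.66, or -0.65 without Sham 3, -1.77 without OVX 1 and -0.10 with the neutrophil covariate.

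The pyruvate dehydrogenase kinases switch off the mitochondrial complex that turns pyruvate into acetyl-CoA. Pdk1, the form known to be induced by HIF-1α, stood at 39.0, 55.0 and 39.4 CPM in Sham and at 39.1, 34.02 and 39.1 CPM in OVX. Sham 2 alone was high, and the log2 fold change of -0.25 ± 0.15 was -0.07 without it. Pdk2 stood at 20.9 to 29.9 CPM and Pdk3 at 22.1 to 29.3 CPM, with log2 fold changes of 0.08 ± 0.18 and 0.07 ± 0.13. Neither direction held, since Pdk2 was -0.06 without OVX 2 and -0.14 with the neutrophil covariate, and Pdk3 was -0.02 without Sham 2. The 3 genes shared the family's reads at 47.4% ± 7.63, 25.6% ± 5.75 and 26.99% ± 5.14 in Sham and 42.1% ± 3.86, 28.3% ± 4.31 and 29.5% ± 1.98 in OVX (SD, n = 3 per group). The difference in the Pdk1 share, -5.34 percentage points, was -0.96 without Sham 2. Pdk4, known as the form of fasting and fat oxidation, had 0 reads in each Sham library and 3, 0 and 2 reads in OVX. A count of 0 allows up to 3 reads, or 0.0907 to 0.127 CPM depending on the library, so no library had Pdk4 above that floor.

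Lactate leaves through the monocarboxylate transporters. Slc16a1 encodes MCT1, which carries lactate in either direction, and Slc16a3 encodes MCT4, the low-affinity exporter of glycolytic cells. Slc16a1 stood at 267, 148 and 201 CPM in Sham and at 251.5, 267 and 252 CPM in OVX. The OVX libraries and Sham 1 were high, Sham 2 was lowest, and the log2 fold change of 0.32 ± 0.19 (adjusted p = 0.811, edgeR's quasi-likelihood test) was 0.13 without Sham 2 and 0.56 without Sham 1. Slc16a3 stood at 6.42, 9.72 and 22.9 CPM in Sham and at 11, 3.04 and 4.09 CPM in OVX. Sham 3 was highest and OVX 2 lowest, and the log2 fold change of -1.11 ± 0.61 was -0.43 without Sham 3, -1.86 without OVX 1 and 0.07 with the neutrophil covariate. Slc16a3 held 2.34%, 6.17% and 10.2% of the pair's reads in Sham and 4.19%, 1.12% and 1.598% in OVX, and the groups overlapped (p = 0.2, two-sided exact permutation test). The Slc16a1 share was 3.94 percentage points higher in OVX, and 1.95 points without Sham 3.

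Over the 11 families with more than 1 isoform gene, the gene with the most reads by group mean was the same in Sham and OVX, and the share of the leading gene gave adjusted permutation p-values of 0.44 to 0.7. Leading genes were Slc2a3, Hk1, Pfkp, Pfkfb3, Aldoa, Pgam1, Eno1, Pkm, Ldha, Pdk1 and Slc16a1. Each led its family in every library except Hk1 in Sham 3, where Hk3 had more reads. Families with a near-exclusive form were aldolase, enolase, pyruvate kinase and lactate dehydrogenase, in which the leading gene took at least 95.6% of the reads in each library.

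**Figure D4:**
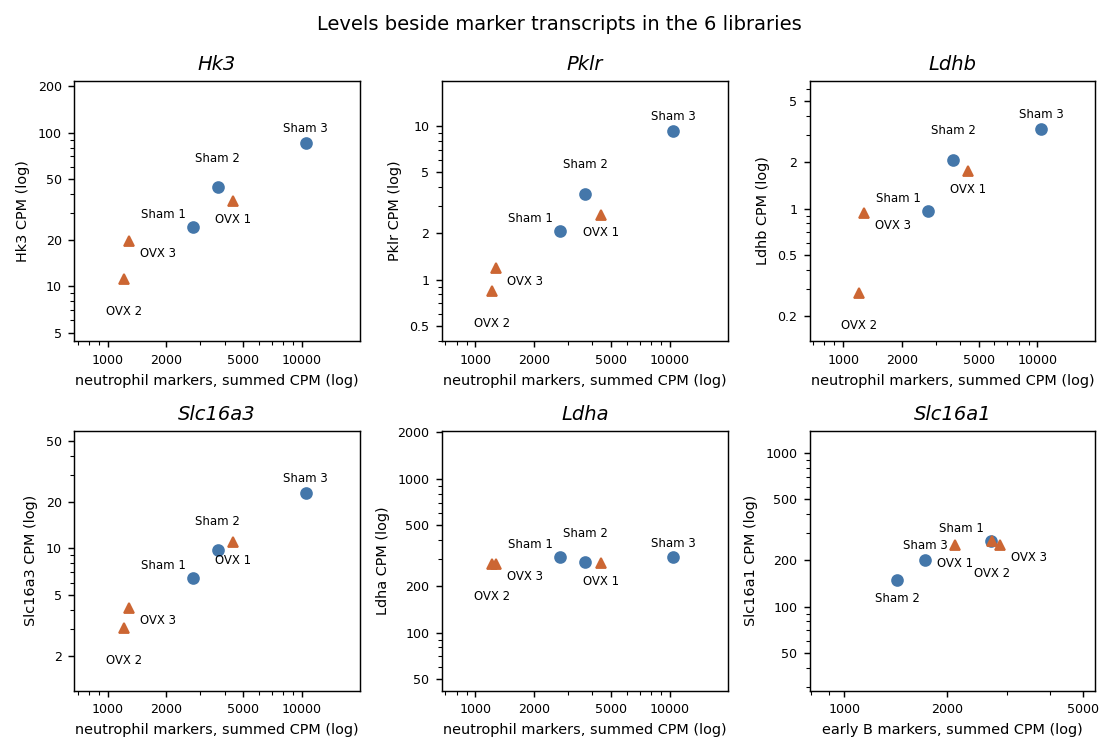
CPM of 5 members against the summed CPM of 18 neutrophil markers, and of Slc16a1 against that of 8 early B cell markers, 1 point per library (circles Sham, triangles OVX), on log axes. Hk3, Pklr, Ldhb and Slc16a3 are highest in Sham 3 and lowest in OVX 2, Ldha is nearly level, and Slc16a1 is lowest in Sham 2.

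The 4 members with the widest spread between libraries were also set against the marker levels. Slc16a3 ranged 7.53-fold in CPM, and its level per 1000 CPM of neutrophil markers was 2.34, 2.64 and 2.19 CPM in Sham and 2.49, 2.504 and 3.19 CPM in OVX, a range of 1.46-fold. Divided in the same way, the range went from 10.9- to 1.64-fold for Pklr, from 7.69- to 1.899-fold for Hk3 and from 11.7- to 3.14-fold for Ldhb. The neutrophil sum itself ranged 8.62-fold, so a division by it can narrow only genes that vary widely, and the other 28 tested members, which varied less, all widened. Divided by the mature B cell markers, which ranged 2.41-fold, the same 4 genes and Pfkfb4 narrowed, but Pklr only from 10.9- to 10.02-fold and Slc16a3 from 7.53- to 6.93-fold. Per 1000 CPM of early B cell markers, whose sum ranged 2.003-fold, Slc16a1 stood at 99.5, 104 and 117 CPM in Sham and at 119, 98.7 and 88.2 CPM in OVX, and its range went from 1.81- to 1.35-fold. Besides Slc16a1, Aldoc narrowed in that division. Of the 15272 tested genes with reads in every library, 8.53% narrowed with early B cell markers and 16.74% with mature B cell markers. The 2 and 5 of the 32 members that did so were near those shares. With neutrophil markers 4 of the 32 members narrowed, against 4.34% of those genes. Neutrophil RNA entered the group comparison only as the covariate given above, which cannot be fully separated from the surgery. Its part in the group differences was not measured. The part of early or mature B cell RNA, or of RNA from the other marked cell types, was not tested.

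Genes that neighbour the pathway, listed by name, were read from the same fit. None was called at an adjusted p under 0.05. Of other glucose entry and glycolysis genes, 11 were tested, 6 higher and 5 lower in OVX. Galm, the mutarotase that interconverts the ring forms of sugars, stood at 1.604, 2.43 and 2.41 CPM in Sham and at 1.02, 0.918 and 1.12 CPM in OVX, with OVX wholly below Sham and a log2 fold change of -1.07 ± 0.28 (unadjusted p = 0.00584, adjusted p = 0.811, edgeR's quasi-likelihood test). Pgm1 also lay below, and Slc2a8 and Gapdhs lay wholly above, so that 2 of the 11 were separated in each direction, where 4.12% of all genes lay below and 4.33% above. The transporter gene Slc2a6 had a log2 fold change of -1.01 ± 0.43, which was -0.42 with the neutrophil covariate. Of pyruvate and lactate handling genes, 14 were tested, 10 higher and 4 lower. Among them Bsg, named for its role as the chaperone that brings MCT1 and MCT4 to the membrane, was level at 133 ± 10.02 CPM in Sham and 133 ± 10.3 CPM in OVX (SD, n = 3 per group). Emb, the alternative chaperone, stood at 14.9, 20.6 and 40.1 CPM in Sham and at 19.2, 8.29 and 7.81 CPM in OVX. Sham 3 was high again, and its log2 fold change of -1.10 ± 0.47 was -0.19 with the neutrophil covariate.

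The pentose phosphate pathway draws on the same glucose 6-phosphate. Its 8 genes were all tested, with 3 higher and 5 lower in OVX and none called. G6pdx, the entry enzyme, had a log2 fold change of -0.46 ± 0.21, or -0.04 with the neutrophil covariate, and was the lowest of the list. Pgls, which acts next in that route, was the highest, at 0.22 ± 0.14, or 0.11 without Sham 2. Of the genes of gluconeogenesis, the reverse route, 4 were tested and 4 were lower, between -0.27 for G6pc3 and -0.05 for Pck2. Of 12 tested regulators of glycolysis genes, 10 were higher and 2 lower. Hif1a, named because the study turns on it, stood at 99.2 ± 1.75 CPM in Sham and 101 ± 2.51 CPM in OVX (SD, n = 3 per group). These are transcript levels and do not measure the protein, and on the log2 scale OVX minus Sham was 0.03 ± 0.06. Myc, a general activator of glycolysis genes, had the lowest log2 fold change of the list, -0.30 ± 0.16, which was -0.12 without Sham 2. Epas1, which encodes HIF-2α, had the highest, 0.66 ± 0.48, and it was 0.05 without OVX 3.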

How the data were processed

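Bone marrow B cells isolated with magnetic beads were sequenced from 3 OVX and 3 Sham libraries, grouped by their labels. The deposited file holds unnormalized counts, the number of reads that the authors assigned to each Ensembl gene in each of the 6 libraries. The submitters' processing notes name CASAVA, Bowtie 0.12.2 and mm10, with no role given for each. The counting tool and its strand setting are not given in the sources used here. The HIF-1α ChIP-seq samples were not analysed here.

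Symbols were matched to 54409 of 54532 identifiers. Aldoa has 2 identifiers, and ENSMUSG00000030695 was used. The analysis ran in R 4.3.3. The filterByExpr function of edgeR 4.0.16 passed 15305 genes. After TMM scaling, edgeR's quasi-likelihood test, with no block, gave OVX against Sham, and p-values were adjusted by Benjamini-Hochberg over all those genes. The standard error is the log2 fold change divided by the square root of F. Single values and shares were compared by two-sided exact permutation tests in scipy 1.17.1, adjusted over the 11 families for the share of the leading gene. The edgeR fit was tested on simulated counts with 200 genes changed. It called 5 of them at 1.5-fold, 107 at 2-fold and 172 at 4-fold, with 0, 6 and 14 wrong calls. Totals of 23838775 to 33136701 counts per library set the precision, reads carry no molecular identifiers, and floors cover counting error only. Alternatives used DESeq2 1.42.0, limma 3.58.1, other scalings and filters, a fold threshold of 1.6, each library left out, the replicate number as a block and the neutrophil markers as a covariate. Transcript lengths were not used here, so shares are of reads, and the leading gene of a family, set to be chosen per length, was chosen by reads. Rows named as copies of a member held at most 0.716% of that member's reads, and reads of Aldoa, Gapdh, Eno1, Ldha and other genes with near-identical copies are uncertain.

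The members and lists were chosen with earlier results of these data known. The members given in full are the gene with the most reads in each family, those with the most extreme values and those whose groups do not overlap. The others are given by range, except where a result turns on them. Gene positions and promoters are from RefSeq, GRCm38.p6, matched by symbol.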

Additional observations from a re-analysis of the deposited data

How the results depend on the processing

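No gene was called at an adjusted p under 0.05 in edgeR, DESeq2 or limma-voom under any alternative listed. At an unadjusted p under 0.05, 1 member and 574 genes passed in the edgeR fit, and the cause of the differences that follow was not tested. The members were 4 with DESeq2, 2 with limma-voom, 2 with library size only, 3 with scaling on B lineage markers, 7 with no filter on low counts, 0 with the neutrophil covariate and 0 to 12 with 1 library left out, the 12 without Sham 1. Over all genes the count was 755 with DESeq2, 594 with limma-voom, 583 with library size only and 555 with scaling on B lineage markers. It was 1269 with no filter, 155 with the covariate and 233 to 2698 with 1 library left out, the 2698 without Sham 1. DESeq2 and the unfiltered fit covered 27416 genes and all 34 members. Scaling on B lineage markers turned the split of 225 higher and 349 lower into 52 and 503, and DESeq2 and the unfiltered fit gave 204 and 551, and 364 and 905. Without OVX 1 it was 297 and 691, and without OVX 3 it was 92 and 319. Members higher in OVX, 7 of 32, were 2 with B lineage scaling, 12 with the covariate and 3 to 7 with 1 library left out.

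No pairing by replicate number was seen, since deviations of same-numbered libraries correlated at -0.41, -0.19 and -0.28. With the replicate number as a replicate block, 206 genes and 0 members had an unadjusted p under 0.05, and no gene was called.

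Of 340 log2 fold changes over the 20 members given in full and these alternatives, 8 turned sign. Turns of other members with 1 library left out or with the covariate stand beside their values in the report. With the covariate these were Slc2a3 at 0.0518, Gpi1 at 0.0217, Tpi1 at 0.0016, Pkm at 0.0287 and Slc16a3 at 0.0655. Pfkfb3 was -0.0081 with B lineage scaling and -0.0215 to 0.188 with 1 library left out, and Tpi1 was -0.10 to 0.0041. With 1 library left out, the OVX minus Sham difference in the Pgam1 share was -1.03 to 0.101 percentage points, and that of Eno1 was -0.0459 to 0.446. Shares per transcript or coding length were not run, as no lengths were used here.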
